A study of Mus musculus with 8 samples.

Results

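The genes described here are 30 markers of cell proliferation, chosen by symbol from the 24537 genes counted in mouse pancreatic islets. They fall into 11 genes of DNA synthesis, named here S phase genes (Mcm2 to Mcm7, Rrm1, Rrm2, Tyms, Tk1 and Pcna), and 19 genes of late cell cycle and division, named mitotic genes (Mki67, Top2a, Ccna2, Ccnb1, Ccnb2, Cdk1, Bub1, Bub1b, Aurka, Aurkb, Plk1, Birc5, Cdc20, Cenpa, Cenpe, Cenpf, Ube2c, Foxm1 and Kif11). They were chosen by name and not by a threshold on a measured value. The samples were whole islets of male mice aged 12 weeks, 4 Wfs1KO and 4 WT, none of them treated. Wolframin, the product of Wfs1, sits in the membrane of the endoplasmic reticulum, and its loss causes Wolfram syndrome. Islets hold endocrine, vascular, stromal and immune cells, so a lower level may mean fewer cells of a type or less RNA per cell, and these cannot be told apart here. The labels do not say how the Wfs1 allele was made or whether animals were pooled.

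A dividing cell copies its DNA in S phase and parts the copies in mitosis, and most of the genes named above are transcribed in waves that follow these steps. E2F transcription factors drive the S phase wave, while the mitotic wave depends on the MuvB complex with B-MYB and FOXM1, which binds promoter elements called CHR. Beta cells, the insulin-secreting cells of the islet, divide often in young mice and rarely in adult ones, and endothelial, stromal and immune cells of the islet can divide as well.

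Exon counts per library ranged between 16395855 and 27057617 in Wfs1KO islets and between 15810830 and 21552731 in WT islets. Wfs1 itself averaged 107 ± 11.8 library-scaled counts (CPM) in Wfs1KO islets and 179 ± 15.6 CPM in WT islets (SD, n = 4 each), with a log2 fold change of -0.74 (SE 0.08) and an adjusted p of 5.1e-05 in edgeR's quasi-likelihood test. Its RNA was lower in every Wfs1KO library, and the labels do not say what the allele lacks. In that test, over 15733 genes, 18.9% of genes were called at an adjusted p under 0.05, 10.4% higher and 8.49% lower in Wfs1KO islets. The first axis of variation between libraries parted replicates 1 and 2 from replicates 3 and 4 in both genotypes, and the genotypes parted on the next axis.

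Of the 30 proliferation genes, all of which passed the filter on low counts, 1 rose in Wfs1KO islets and none fell, against 18.9% of all tested genes called. The gene that rose was Rrm2, an S phase gene encoding the small subunit of ribonucleotide reductase. The other 29 did not pass the test, although 3 of the 30 had an unadjusted p under 0.05, against 31.1% of all tested genes, namely Rrm2 above WT and Mcm6 and Cdk1 below it. Rrm2 was also the single member whose libraries did not overlap between genotypes, where 22.6% of all tested genes did not overlap. DESeq2, which called 21.1% of the genes it gave an adjusted p, called 1 member too, Rrm2. So did limma-voom with sample quality weights, which called 3305 of the 15733 tested genes.

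The S phase genes lay mostly above and the mitotic genes mostly below zero, a contrast that was given no test. Of the S phase genes, 8 of 11 had a log2 fold change above 0 and the median was 0.15, which ranged between 0.06 (without Wfs1KO replicate 1) and 0.21 (without Wfs1KO replicate 4) as each library was left out. Of the mitotic genes, 16 of 19 were below 0, that is 84.2%, and their median was -0.27, ranging from -0.58 for Cdk1 to 0.35 for Aurka. Over all tested genes 47.4% were below 0 and the median was 0.013. Standard errors of the mitotic genes ran from 0.09 to 0.46, and the 95% intervals of all mitotic genes except Cdk1 reached across 0. The mitotic count called was 0 in edgeR's quasi-likelihood test, in DESeq2 and in limma-voom, with 1 gene (Cdk1) at an unadjusted p under 0.05 in edgeR.

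**Figure D1:**
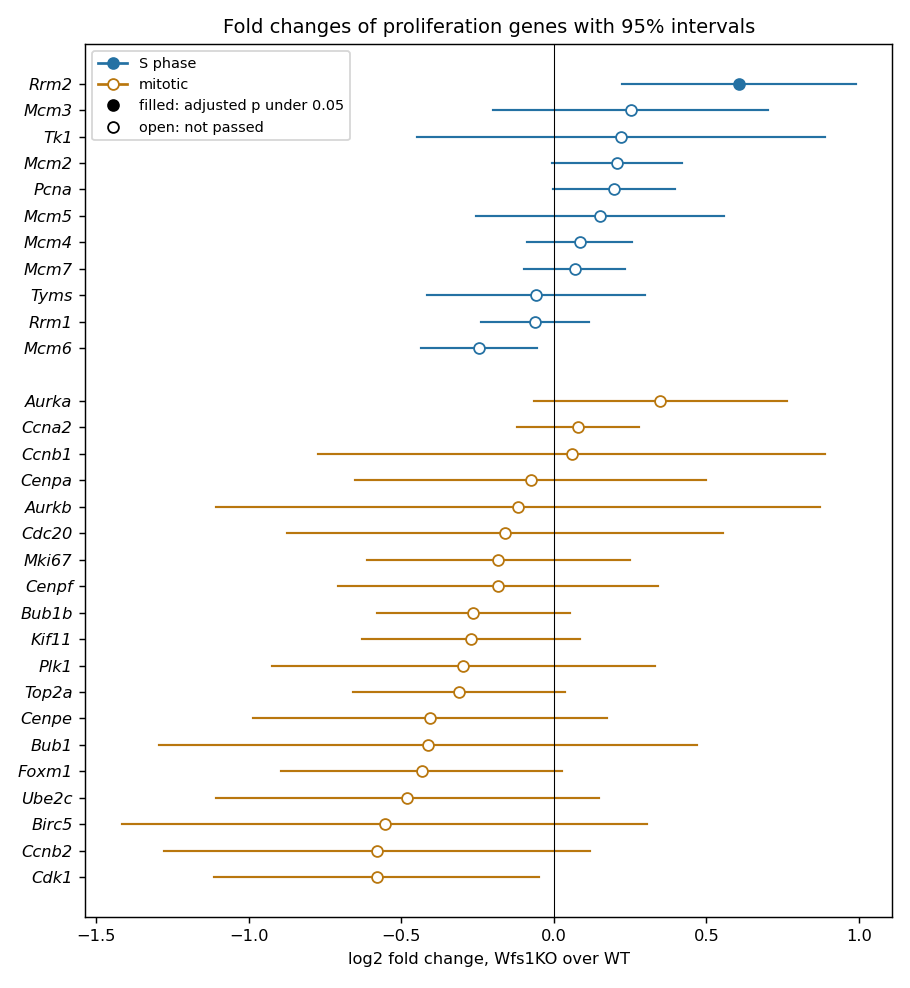
Log2 fold change, Wfs1KO over WT, of the 30 proliferation genes (x axis) with 95% intervals from edgeR, S phase genes above and mitotic genes below. The filled point, Rrm2 at 0.61, is the gene with an adjusted p under 0.05, and 16 of the 19 mitotic genes lie left of 0.

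Letters of known cell cycle promoter elements were looked up in RefSeq promoter windows (GRCm38.p6), which run from 250 bases before to 50 bases after each start site. Windows were found for 26 of the 30 genes, 10 S phase and 16 mitotic genes, and none was matched for Ccna2, Aurkb, Foxm1 and Mcm4. Both strands were searched for the CHR letters TTTGAA (held by 17.9% of all windows) and TTCGAA (held by 1.6%). The E2F letters searched were TTCCCGC (held by 4.6% of all windows), TTGGCGC (held by 2.5%), TTCGCGC (held by 1.6%) and TTGCCGC (held by 1.8%), and CCAAT, the letters of the NF-Y box, was searched as well. A CHR match was present in 13 of 16 mitotic genes and in 2 of 10 S phase genes (Mcm2 and Mcm7), against 19.2% of all 32851 windows. An E2F match was present in 3 of 16 mitotic genes (Mki67, Ccnb1 and Cdk1) and in 6 of 10 S phase genes (Mcm3, Mcm5, Mcm6, Mcm7, Rrm1 and Rrm2), against 9.6% of all windows. CCAAT was present in 15 of 16 mitotic genes and in 8 of 10 S phase genes, against 37.4% of all windows. These are matches of letters and not measured binding, and some overlap, as where TTGGCGC on the given strand and TTCGCGC on the other share bases in Mcm6.

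The following 150 bases before the start site show both layouts, with matched letters in capitals and each sequence written 5′ to 3′ along its gene's strand. A match on the other strand appears as its reverse complement, so that ATTGG stands for CCAAT and TTCAAA for TTTGAA. The first 4 are mitotic genes that hold CHR and CCAAT letters, and the last 3 are S phase genes, among them Rrm2, the gene that rose, and Mcm6, the S phase gene with the lowest fold change.
Cdk1: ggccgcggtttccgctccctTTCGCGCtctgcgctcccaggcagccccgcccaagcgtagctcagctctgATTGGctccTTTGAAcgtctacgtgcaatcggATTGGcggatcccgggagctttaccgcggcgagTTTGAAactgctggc
Top2a: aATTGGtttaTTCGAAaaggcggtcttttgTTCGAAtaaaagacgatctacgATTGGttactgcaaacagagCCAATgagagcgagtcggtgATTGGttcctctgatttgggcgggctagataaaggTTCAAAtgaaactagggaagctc
Cdc20: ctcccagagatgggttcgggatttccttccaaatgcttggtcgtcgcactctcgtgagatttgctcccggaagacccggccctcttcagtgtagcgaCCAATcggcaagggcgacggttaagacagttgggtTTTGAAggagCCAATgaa
Kif11: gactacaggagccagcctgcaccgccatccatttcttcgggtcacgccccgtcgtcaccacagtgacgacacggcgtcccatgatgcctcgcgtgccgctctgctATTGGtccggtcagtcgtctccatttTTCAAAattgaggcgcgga
Mcm6: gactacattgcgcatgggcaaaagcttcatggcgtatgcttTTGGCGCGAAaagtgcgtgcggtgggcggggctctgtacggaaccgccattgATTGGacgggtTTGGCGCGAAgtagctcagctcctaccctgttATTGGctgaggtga
Rrm1: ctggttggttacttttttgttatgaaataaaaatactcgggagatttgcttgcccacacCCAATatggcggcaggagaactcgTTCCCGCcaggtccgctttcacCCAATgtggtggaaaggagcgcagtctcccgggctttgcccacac
Rrm2: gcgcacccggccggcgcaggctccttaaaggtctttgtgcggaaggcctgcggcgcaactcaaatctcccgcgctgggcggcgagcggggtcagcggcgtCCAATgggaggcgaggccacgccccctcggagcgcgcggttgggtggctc
They lie at chr10:69352913-69353062 on the minus strand (Cdk1), chr11:99024190-99024339 on the minus strand (Top2a), chr4:118437344-118437493 on the minus strand (Cdc20), chr19:37376232-37376381 on the plus strand (Kif11), chr1:128359706-128359855 on the minus strand (Mcm6), chr7:102441545-102441694 on the plus strand (Rrm1) and chr12:24708104-24708253 on the plus strand (Rrm2). In Cdk1 the TTTGAA nearest the start runs from base -15 to base -10, and in Cdc20 the TTTGAA runs from -18 to -13. Mcm6 holds the run TTGGCGCGAA at 2 places, and Rrm1 holds TTCCCGC from -67 to -61. The E2F letters of Rrm2, TTGCCGC on the other strand from -235 to -229, lie before the printed stretch.

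Ribonucleotide reductase makes deoxyribonucleotides from ribonucleotides, and its small subunit, encoded by Rrm2, is the part whose level follows S phase. Rrm2 (NM_009104, chromosome 12, bases 24708254 to 24714146 of mm10) had 5.39, 4.74, 5.25 and 4.65 CPM in Wfs1KO replicates 1 to 4, against 2.68, 4.56, 3.11 and 2.85 CPM in WT replicates 1 to 4. All 4 Wfs1KO libraries lay above all 4 WT libraries, but Wfs1KO replicate 4 stood only just above WT replicate 2. The means were 5.01 ± 0.367 CPM in Wfs1KO islets and 3.30 ± 0.859 CPM in WT islets (SD, n = 4 each), and the fold was 1.52, with a 95% interval of 1.17 to 1.99. The log2 fold change was 0.61 (SE 0.18) and the adjusted p was 0.0288 in edgeR's quasi-likelihood test, on 46 to 154 counts per library. The adjusted p was above 0.05 when any of 6 libraries was left out (Wfs1KO replicate 1, 2 or 3, or WT replicate 1, 3 or 4), ranging from 0.0530 to 0.0881, and it was 0.198 in replicates 1 and 2 alone and 0.0556 in replicates 3 and 4 alone. The fold change stayed above 0 in all 18 alternatives, between 0.48 and 0.80 on the log2 scale. In the authors' deposited table, Rrm2 has a log2 fold change of 0.47 and an adjusted p of 0.0226, and no other member is under 0.05 there.

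The large subunit, Rrm1, did not pass the test (adjusted p 0.673). Rrm1 had 19.4, 20.9, 21.9 and 23.0 CPM in Wfs1KO replicates 1 to 4, against 23.3, 24.1, 19.05 and 22.0 CPM in WT replicates 1 to 4. The genotypes overlapped over most of their range, and the log2 fold change of -0.06 had a 95% interval of -0.24 to 0.12. Per length, Rrm1 averaged 5.35 counts scaled to gene length and library size (RPKM) in Wfs1KO islets and 5.56 RPKM in WT islets, while Rrm2 averaged 2.31 RPKM in Wfs1KO islets and 1.52 RPKM in WT islets. Whether the fold changes of both subunits differ was not tested.

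Mcm2 to Mcm7 encode the 6 subunits of the ring-shaped helicase that is loaded at replication origins and unwinds DNA. Together they came to 66.8, 61.0, 63.8 and 57.2 CPM in Wfs1KO replicates 1 to 4 and to 60.9, 61.5, 59.4 and 62.0 CPM in WT replicates 1 to 4. The sums overlapped, with Wfs1KO replicate 1 the highest library and Wfs1KO replicate 4 the lowest. Within the ring, Mcm6 had a log2 fold change below 0 while the other 5 subunits had log2 fold changes above 0, from 0.07 for Mcm7 to 0.25 for Mcm3. That of Mcm3 was 0.03 without Wfs1KO replicate 1 and 0.04 in replicates 3 and 4 alone.

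Mcm6 (NM_001313695, chromosome 1, bases 128331575 to 128359705 of mm10) had 16.1, 14.8, 14.3 and 13.0 CPM in Wfs1KO replicates 1 to 4, against 15.8, 19.1, 16.4 and 17.8 CPM in WT replicates 1 to 4. Wfs1KO replicate 1 lay above WT replicate 1, and the other Wfs1KO libraries lay below all WT libraries. The log2 fold change was -0.24 (SE 0.09), with a 95% interval of -0.43 to -0.05, and the adjusted p was 0.0701 in edgeR's quasi-likelihood test. Without Wfs1KO replicate 1 the adjusted p was 0.0459, the single setting of 18 in which a member other than Rrm2 passed.

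Mcm2 had 12.0, 10.5, 13.0 and 11.5 CPM in Wfs1KO replicates 1 to 4, against 9.57, 9.35, 10.2 and 11.5 CPM in WT replicates 1 to 4. WT replicate 4 stood within the range of the Wfs1KO libraries, and the other 3 WT libraries stood below it. The log2 fold change was 0.21 (SE 0.10) and the adjusted p 0.175. Mcm3 had 4.76, 3.19, 3.23 and 2.42 CPM in Wfs1KO replicates 1 to 4, against 2.996, 3.06, 2.97 and 2.50 CPM in WT replicates 1 to 4. Wfs1KO replicate 1 lay above all other libraries, and replicate 4 was the lowest library in both genotypes. Mcm4, Mcm5 and Mcm7 had log2 fold changes of 0.08, 0.15 and 0.07 and adjusted p-values between 0.534 and 0.648. About 12.6% of the exon bases of Mcm7 are shared with other genes, among them Ap4m1 and Cops6 on the opposite strand and Mir25 and Mir93 within it, and counting used no strand, so its counts may hold reads of these genes.

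Pcna encodes the sliding clamp that holds DNA polymerases on their template, and per length it was the highest of all 30 genes, at 14.2 ± 1.38 RPKM in Wfs1KO islets and 12.4 ± 1.21 RPKM in WT islets (SD, n = 4 each). It had 19.3, 17.7, 18.6 and 15.3 CPM in Wfs1KO replicates 1 to 4, against 15.5, 16.9, 16.3 and 13.4 CPM in WT replicates 1 to 4. In both genotypes replicate 4 was lowest, and the log2 fold change of 0.20 had a 95% interval of -0.0045 to 0.40 and an adjusted p of 0.170. Tyms, thymidylate synthase, and Tk1, the cytosolic thymidine kinase of the salvage route, had log2 fold changes of -0.06 and 0.22, both with overlapping libraries and with adjusted p-values of 0.852 and 0.692. Tk1 ranged from 14 to 50 counts per library and was the lowest S phase gene per length, at 0.941 RPKM over all 8 libraries.

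**Figure D2:**
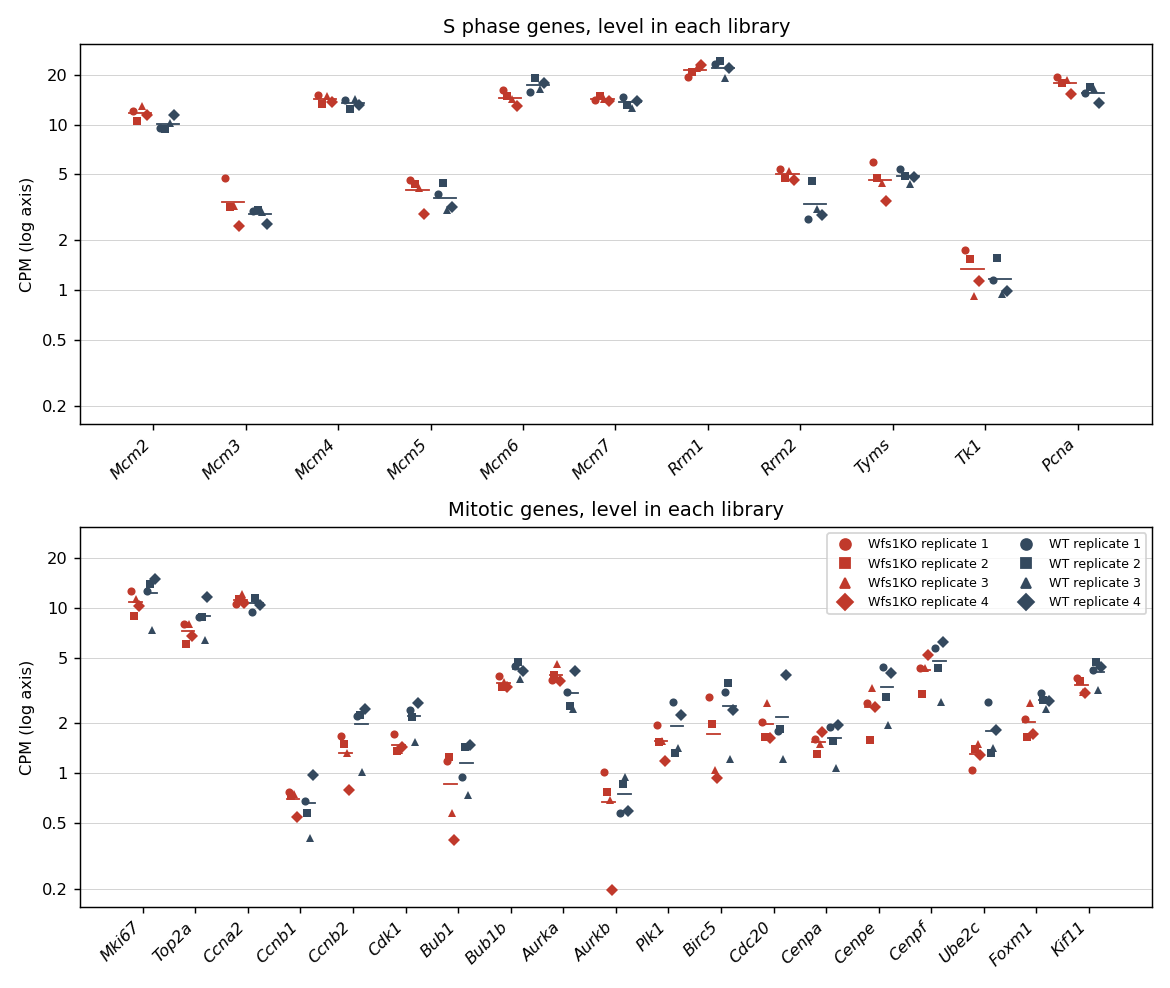
CPM (y axis, log scale) of each S phase gene (above) and each mitotic gene (below) in every library, Wfs1KO in red to the left of WT in dark blue, with marker shapes for replicates 1 to 4 and bars for genotype means. Rrm2 is the gene whose Wfs1KO libraries all lie above the WT libraries, while in most mitotic genes WT replicate 3 (triangle) lies at the foot of the WT libraries.

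The mitotic genes were lower in level than the S phase genes. Per length, their median was 0.710 RPKM in Wfs1KO islets and 0.872 RPKM in WT islets, that of the S phase genes 3.30 RPKM in Wfs1KO islets and 3.03 RPKM in WT islets, and that of all tested genes 7.30 RPKM in Wfs1KO islets and 7.22 RPKM in WT islets. None of the mitotic genes and 1 S phase gene, Pcna, lay above the median of all tested genes. The lowest mitotic gene per length was Bub1, at 0.233 RPKM over all 8 libraries, and the highest was Ccna2, at 3.89 RPKM. The depth behind the low genes was small, with 6 to 22 counts per library for Ccnb1, 4 to 29 for Aurkb and 8 to 34 for Bub1. The standard errors of their log2 fold changes were 0.39, 0.46 and 0.41, which hold both counting error and the spread between samples.

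Cdk1 (NM_007659, chromosome 10, bases 69336635 to 69352912 of mm10) is the kinase that drives entry into mitosis. It had 1.72, 1.35, 1.38 and 1.44 CPM in Wfs1KO replicates 1 to 4, against 2.42, 2.19, 1.55 and 2.65 CPM in WT replicates 1 to 4. WT replicate 3 lay below Wfs1KO replicate 1, and the other 3 WT libraries lay above all Wfs1KO libraries. The log2 fold change was -0.58 (SE 0.25), with a 95% interval of -1.11 to -0.05, and the adjusted p was 0.123 in edgeR's quasi-likelihood test. Cdk1 had 23 to 54 counts per library.

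Its cyclin partners had log2 fold changes on both sides of 0, and none passed the test. Ccnb2, cyclin B2, had 1.68, 1.5, 1.33 and 0.79 CPM in Wfs1KO replicates 1 to 4, against 2.21, 2.25, 1.01 and 2.45 CPM in WT replicates 1 to 4. WT replicate 3 again stood among the Wfs1KO libraries, apart from the other WT libraries, and the log2 fold change of -0.58 had a 95% interval of -1.28 to 0.12. Ccnb1, cyclin B1, had a log2 fold change of 0.06 with an interval of -0.77 to 0.89. Ccna2, cyclin A2, which acts in S phase and G2, averaged 11.2 ± 0.723 CPM in Wfs1KO islets and 10.6 ± 0.902 CPM in WT islets (SD, n = 4 each), a log2 fold change of 0.08 with an interval of -0.12 to 0.28. In Ccna2, 12.5% of exon bases are shared with Exosc9 on the opposite strand, and its counts may hold reads of that gene.

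Foxm1 encodes a transcription factor of the mitotic wave. It had 2.14, 1.65, 2.65 and 1.73 CPM in Wfs1KO replicates 1 to 4, against 3.05, 2.77, 2.43 and 2.75 CPM in WT replicates 1 to 4. Wfs1KO replicate 3 lay above WT replicate 3, and the other Wfs1KO libraries lay below all WT libraries. The log2 fold change was -0.43 (SE 0.21), the interval ran from -0.89 to 0.03 and the adjusted p was 0.187.

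Mki67 encodes Ki-67, the protein on the surface of mitotic chromosomes that is the usual stain for dividing cells. It had 12.6, 8.90, 11.3 and 10.3 CPM in Wfs1KO replicates 1 to 4, against 12.6, 13.9, 7.36 and 14.9 CPM in WT replicates 1 to 4. The WT libraries spread more widely than the Wfs1KO libraries, and both the lowest and the highest value were from WT. The log2 fold change was -0.18 with a 95% interval of -0.61 to 0.25. Top2a, the topoisomerase that untangles sister DNA, had 8.02, 6, 7.96 and 6.78 CPM in Wfs1KO replicates 1 to 4, against 8.72, 8.83, 6.42 and 11.5 CPM in WT replicates 1 to 4. Here too 3 WT libraries lay above all Wfs1KO libraries and WT replicate 3 lay among them, and the log2 fold change of -0.31 had an adjusted p of 0.214.

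None of the members of the spindle, the kinetochore and the spindle checkpoint passed the test, and their log2 fold changes are given here. Bub1 and Bub1b, checkpoint proteins at the kinetochore, were at -0.41 and -0.27. Cenpa, the histone variant of centromeres, was at -0.08, and the kinetochore proteins Cenpe, a motor, and Cenpf were at -0.41 and -0.18. Kif11, the motor that pushes spindle poles apart, was at -0.27, with 3.78, 3.63, 3.12 and 3.07 CPM in Wfs1KO replicates 1 to 4, against 4.20, 4.68, 3.17 and 4.37 CPM in WT replicates 1 to 4. In Kif11 as in Cdk1, WT replicate 3 stood among the Wfs1KO libraries and the other WT libraries stood above them. Adjusted p-values of these 6 genes ranged from 0.245 for Bub1b to 0.887 for Cenpa.

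Aurka, the Aurora kinase of centrosomes, had the highest log2 fold change of the mitotic genes, 0.35 (SE 0.19), with an adjusted p of 0.245. It had 3.64, 3.92, 4.56 and 3.61 CPM in Wfs1KO replicates 1 to 4, against 3.10, 2.54, 2.43 and 4.17 CPM in WT replicates 1 to 4. WT replicate 4 lay within the Wfs1KO range and the other 3 WT libraries lay below it. Aurkb, the Aurora kinase of the chromosomal passenger complex, was at -0.12 and its partner Birc5, survivin, at -0.56. Birc5 had 2.91, 1.98, 1.04 and 0.94 CPM in Wfs1KO replicates 1 to 4, against 3.10, 3.52, 1.22 and 2.41 CPM in WT replicates 1 to 4. Both Wfs1KO replicates 3 and 4 and WT replicate 3 were low, and the 95% interval of the fold change ran from -1.42 to 0.31.

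Of the mitotic kinase Plk1 and the genes of the anaphase-promoting complex, the ligase that ends mitosis, none passed the test. Plk1 was at -0.30, the complex's activator Cdc20 at -0.16 and its ubiquitin-conjugating enzyme Ube2c at -0.48. Ube2c had 1.05, 1.40, 1.5 and 1.29 CPM in Wfs1KO replicates 1 to 4, against 2.68, 1.33, 1.42 and 1.82 CPM in WT replicates 1 to 4, and WT replicates 1 and 4 lay above all Wfs1KO libraries while WT replicates 2 and 3 lay among them. For Ube2c, 22.8% of exon bases are shared with Tnnc2 on the opposite strand, for Plk1 7.1% and for Cdc20 2.8%. In all, 8 of the 30 genes share exon bases with another gene, 6 of them with a gene on the opposite strand.

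Summed over the class, the mitotic genes came to 67.6, 56.9, 66.0 and 57.5 CPM in Wfs1KO replicates 1 to 4, against 74.6, 72.9, 52.3 and 83.1 CPM in WT replicates 1 to 4. Among the WT libraries 3 lay above all Wfs1KO libraries and replicate 3 lay below all of them, so the genotypes overlapped. The means were 62.0 ± 5.59 CPM in Wfs1KO islets and 70.7 ± 13.0 CPM in WT islets (SD, n = 4 each), a ratio of 0.876 that is within the spread of the WT libraries. The S phase genes summed to 119, 111, 115 and 105 CPM in Wfs1KO replicates 1 to 4, against 109, 114, 103 and 106 CPM in WT replicates 1 to 4. These sums overlapped over most of their range and their ratio was 1.04.

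The mitotic sum over the S phase sum, which needs no library size, was 0.570, 0.514, 0.574 and 0.548 in Wfs1KO replicates 1 to 4, against 0.686, 0.642, 0.507 and 0.783 in WT replicates 1 to 4. The Wfs1KO libraries lay close together and WT replicate 3 lay below them, while the other 3 WT libraries lay above them. As a log2 ratio of Wfs1KO over WT, the mitotic share was -0.25, and it was -0.35 without WT replicate 3 and -0.15 without WT replicate 4. The log2 ratio of the mitotic sums was -0.19 with all libraries, -0.31 without WT replicate 3 and -0.11 without WT replicate 4. Within replicates 1 and 2 the mitotic sums averaged 62.2 CPM in Wfs1KO islets and 73.8 CPM in WT islets, a log2 ratio of -0.25. Within replicates 3 and 4 they averaged 61.7 CPM in Wfs1KO islets and 67.7 CPM in WT islets, a log2 ratio of -0.13. A sum over chosen genes was given no test.

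Within a genotype, many of the mitotic genes were low or high in the same libraries. In Wfs1KO islets replicate 4 was the lowest library for 10 of 19 mitotic and 7 of 11 S phase genes, against 27.7% of all tested genes, and replicate 1 was the highest for 10 of 19 mitotic and 8 of 11 S phase genes, against 25.5%. WT replicate 3 was the lowest WT library for 15 of 19 mitotic genes, or 78.9%, and for 5 of 11 S phase genes, against 22.5% of all tested genes. WT replicate 4 was the highest for 10 of 19 mitotic genes, or 52.6%, against 23.8% of all tested genes. Acinar markers, of the enzyme-secreting cells around islets, summed to 28727, 28743, 9877 and 68327 CPM in Wfs1KO replicates 1 to 4, against 44897, 32072, 71925 and 33127 CPM in WT replicates 1 to 4. Wfs1KO replicate 4 and WT replicate 3, the libraries lowest for most mitotic genes in their genotypes, were the highest in acinar markers of their genotype. WT replicate 3 was also the shallowest library. By mitotic sum, however, Wfs1KO replicate 2 was the lowest of its genotype (56.9 CPM, against 57.5 CPM in replicate 4), with acinar markers close to those of replicate 1. Wfs1KO replicate 3, the lowest in acinar markers, had a mitotic sum of 66.0 CPM, below the 67.6 CPM of replicate 1. The part of acinar RNA and depth in these differences was not tested.

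**Figure D3:**
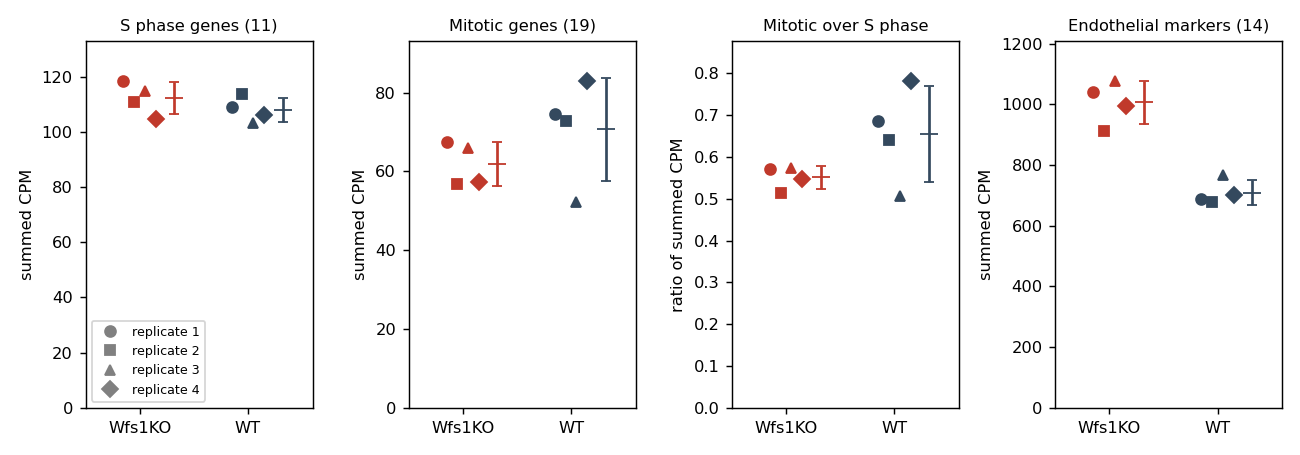
Summed CPM per library of the 11 S phase genes, the 19 mitotic genes and the 14 endothelial markers, and the ratio of mitotic to S phase sums, with Wfs1KO (red) left of WT (dark blue), shapes for replicates and the mean ± SD beside the points. WT replicate 3, at 52.3 CPM, lies below all Wfs1KO libraries in the mitotic sum, while the endothelial sums do not overlap.

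Genes of the same processes that are not among the 30 were set beside them. Of 52 other replication genes 50 were tested, of which 4 rose and 2 fell, with a median log2 fold change of -0.0032. Over all tested genes 10.4% rose and 8.49% fell. Pold2, a subunit of DNA polymerase delta, rose to 20.8 ± 2.28 CPM in Wfs1KO islets, against 15.5 ± 1.29 CPM in WT islets (SD, n = 4 each; log2 fold change 0.42, adjusted p 0.00502). E2f1, an E2F factor of the S phase wave, had 13.9, 13.2, 13.7 and 14.004 CPM in Wfs1KO replicates 1 to 4, against 9.46, 7.97, 7.63 and 12.1 CPM in WT replicates 1 to 4. Its 4 Wfs1KO libraries lay close together above all WT libraries, with a log2 fold change of 0.55 and an adjusted p of 0.00729, although the adjusted p was 0.173 in replicates 3 and 4 alone.

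Ccne1, cyclin E1 of S phase entry, rose by 0.57 on the log2 scale (adjusted p 0.0288), and Usp1, a deubiquitinase that acts on Pcna, rose by 0.20 (adjusted p 0.0470). Both calls were lost with the replicate number as a block, with adjusted p-values of 0.0538 for Ccne1 and 0.0603 for Usp1. That of Ccne1 was also lost without Wfs1KO replicate 1 or 3 or WT replicate 1, 3 or 4 (0.0598 to 0.0838). That of Usp1 was lost in DESeq2 (0.0704) and without any single library other than WT replicate 1 (0.0754 to 0.120). Orc6, of the origin recognition complex, fell by 0.41 (adjusted p 0.0192; 0.0553 without WT replicate 2 and 0.0579 without WT replicate 3), and 6.9% of its exon bases are shared with Vps35 on the opposite strand. Dnmt1, the maintenance DNA methyltransferase, fell by 0.20 (adjusted p 0.0258), and the call was lost without Wfs1KO replicate 1 or 4 or WT replicate 1, 2 or 3 (0.0508 to 0.0742).

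Of 70 other mitosis genes 69 were in the table and 66 were tested. Of these 2 rose and 1 fell, against 10.4% and 8.49% of all tested genes. As in the mitotic class above, most of them, 53 of 66 or 80.3%, lay below 0, against 47.4% of all tested genes. Their median was -0.17, and they were read from the same libraries as the mitotic class. Cks1b, a small protein that binds cyclin-dependent kinases, had 12.0, 12.9, 14.4 and 10.6 CPM in Wfs1KO replicates 1 to 4, against 7.04, 6.29, 8.31 and 7.26 CPM in WT replicates 1 to 4. All Wfs1KO libraries lay above all WT libraries, and the fold was 1.73, with a 95% interval of 1.46 to 2.06 and an adjusted p of 3.4e-04. Racgap1, which acts in cytokinesis, had 10.6, 10.6, 11.2 and 12.0 CPM in Wfs1KO replicates 1 to 4, against 14.6, 16.3, 17.4 and 18.995 CPM in WT replicates 1 to 4. All Wfs1KO libraries lay below all WT libraries, with a log2 fold change of -0.60 (SE 0.09) and an adjusted p of 4.9e-04. Zwint, a kinetochore protein, rose by 0.27 (adjusted p 0.00251). The calls of Pold2, Cks1b, Racgap1 and Zwint held in all 18 alternatives.

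A further list held 16 genes of the Rb family, the DREAM complex and related E2F and Myb factors. Rb family proteins and the DREAM complex hold cell cycle promoters silent in resting cells, but the list also holds B-MYB of the mitotic wave. Of the 16 genes 1 fell and none rose. Their median log2 fold change was 0.0030, and over all tested genes 8.49% fell and 10.4% rose. Rb1, the retinoblastoma protein, fell to 41.9 ± 3.85 CPM in Wfs1KO islets, against 50.4 ± 2.77 CPM in WT islets (SD, n = 4 each; adjusted p 0.0159). Without Wfs1KO replicate 2 or WT replicate 1 the adjusted p was 0.0507 and 0.0605. In Rb1 14.9% of exon bases are shared with genes on the opposite strand.

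**Figure D4:**
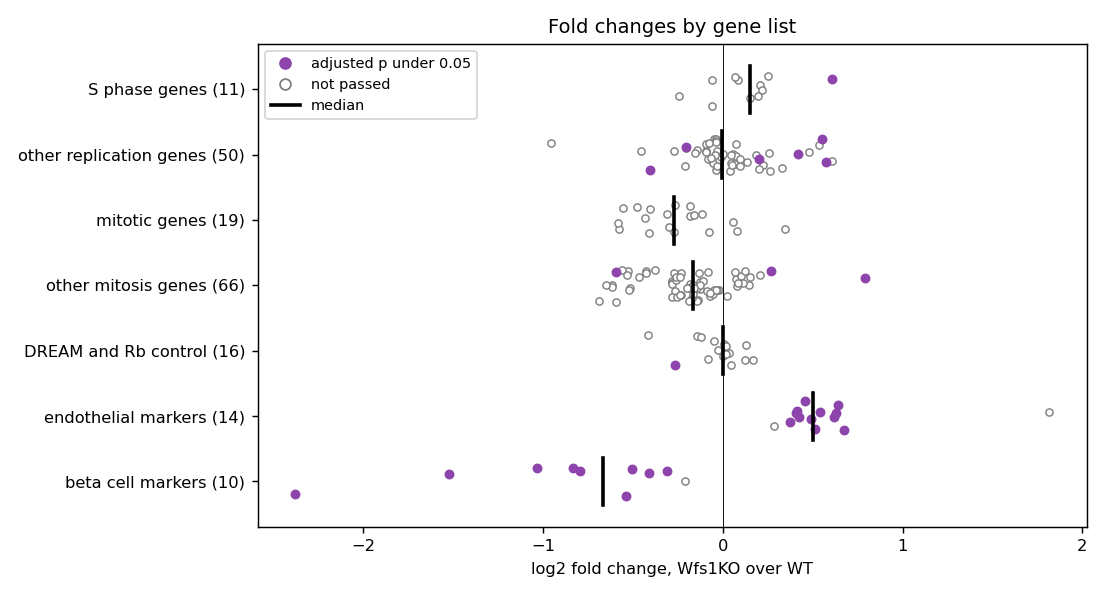
Log2 fold change, Wfs1KO over WT (x axis), of each tested gene of 7 lists (rows), with called genes filled, other genes open and the list median as a black bar. The mitotic genes and the other mitosis genes have medians of -0.27 and -0.17, the S phase genes and other replication genes of 0.15 and -0.0032.

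Markers of the cell types that could hold dividing cells were given beside the members. Over all tested genes 10.4% rose and 8.49% fell. Endothelial markers rose in 12 of 14 cases, with a median log2 fold change of 0.50, and those with the smallest adjusted p were Pecam1 (log2 fold change 0.64), Eng (0.67) and Plvap (0.62). Their sum was 912 to 1078 CPM in Wfs1KO islets and 678 to 768 CPM in WT islets, with no overlap. Stellate cell and pericyte markers rose in 5 of 14 cases (median 0.57), with sums of 383 to 456 CPM in Wfs1KO islets and 237 to 324 CPM in WT islets. Of these 14, 12 lay above 0 and 2, both collagen genes, lay below it. Much of the sum was Rgs5, at 219 CPM in Wfs1KO islets and 135 CPM in WT islets on average. Beta cell markers fell in 9 of 10 cases (median -0.67), or in 8 of 10 with the replicate number as a block, with sums of 88180 to 110000 CPM in Wfs1KO islets and 143700 to 187700 CPM in WT islets. In the islets with higher endothelial, stellate cell and pericyte sums and lower beta cell markers, the mitotic sum was lower on average. Rrm2 was higher in all 4 Wfs1KO libraries than in any WT library, as were 12.3% of all tested genes. The same held for the endothelial sum, the stellate cell and pericyte sum and the erythroid sum. The part of cell type make-up in the levels of the proliferation genes was not tested.

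Of the other lists, 1 of 7 alpha cell, 3 of 5 delta and PP cell, 3 of 10 duct and 1 of 6 Schwann cell markers rose. A single duct marker fell. These counts stand against 10.4% of all tested genes that rose and 8.49% that fell. None of 12 acinar, 12 macrophage, 10 lymphocyte and 5 erythroid markers was called by edgeR's quasi-likelihood test or by DESeq2. Of these, 0, 0, 1 and 3 had an unadjusted p under 0.05 in edgeR, against 31.1% of all tested genes. With the replicate number as a block, 2 alpha cell markers rose and Cd79a, a B cell marker, was called lower (adjusted p 0.0221, against 0.135 without the block), while 2 delta and PP cell and 2 duct markers rose. The calls lost under the block were those of Ghsr (adjusted p 0.0554) and Spp1 (0.0559), which are named for that reason after their values were seen. Macrophage markers summed to 241, 168, 132 and 108 CPM in Wfs1KO replicates 1 to 4, against 117, 159, 100 and 148 CPM in WT replicates 1 to 4. Wfs1KO replicate 1, the highest Wfs1KO library in 10 mitotic and 8 S phase genes, was also the highest in macrophage markers. Wfs1KO replicate 4 and WT replicate 3 were the lowest of their genotypes. Other libraries did not match in this way. Wfs1KO replicate 2, next after replicate 1 in macrophage markers, had the lowest mitotic sum of its genotype, at 56.9 CPM. Among WT libraries replicate 2 was highest in macrophage markers, but replicate 4 had the highest mitotic sum, at 83.1 CPM. The part of immune cells in these levels was not tested. Lymphocyte markers ranged from 13.5 to 68.2 CPM in Wfs1KO islets and from 25.5 to 63.4 CPM in WT islets. Ins2, Gcg, Ppy, Kdr, Rgs5, Ctrb1, Krt7, C1qa, Cd79a and Hbb-bs were the most abundant of their lists in CPM, the hormone genes of beta, alpha and PP cells among them, and no marker tested was at 0 in all libraries.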

How the data were processed

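Polyadenylated RNA was sequenced from 4 Wfs1KO and 4 WT samples of pancreatic islets of male mice 12 weeks old, per the labels. Per the submitters' processing notes, bcl2fastq, STAR 2.6.0a, HOMER 4.11.1 and DESeq2 were used with the mm10 build. The deposited values are raw counts of reads in exons, 1 entry per gene, with no strand option, per the file headers. Exon length in bases is deposited beside the counts, per the file headers, and RPKM values were computed from both. The authors also deposited a comparison with log2 fold changes and p-values. Its fold changes were taken here as Wfs1KO over WT, since 100% of the genes called by edgeR here had the same sign there. The authors' transformed log2 values per library were not used.

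The test was that of edgeR 4.0.16 in R 4.3.3 (library sizes scaled by TMM, filterByExpr with minimum count 10 and minimum total count 15, robust quasi-likelihood fit and F-test) over 15733 of 24537 genes, with Benjamini-Hochberg adjustment over all of them and genotype as the only term. "Rose" and "fell" are used at an adjusted p under 0.05. CPM values use TMM-scaled library sizes. The fit was tested on simulated data. The p-values measure the spread between the 4 separate samples of each genotype. Sums of CPM over gene classes got no test. The 30 genes and all lists, tests and named genes were chosen with earlier results of these data known. Outside the 30, the genes named are up to 6 called genes with the smallest adjusted p of each other cell cycle list, the most abundant gene of each marker list, and 3 called endothelial markers. A gene that this rule takes is not reported here. Exon overlaps were read from GENCODE (GRCm38, the same build as mm10).

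Alternatives were DESeq2 1.42.0, its size factors in edgeR, and limma-voom with sample quality weights (limma 3.58.1). Others were no low-count filter, at least 1 CPM in at least 4 libraries, and scaling without the 20 most abundant genes. Blocks were the replicate number, and replicates 1 and 2 against 3 and 4. Each of these pairs was also fitted alone, and each library was left out. For the sums the alternatives were CPM on raw totals and on DESeq2 size factors, and RPKM. The 20 most abundant genes, and each library, were also left out of the sums. What the replicate numbers mark is not stated in the labels that give them. Deviations of same-numbered libraries from their genotype means correlated at 0.153, 0.443, 0.269 and 0.188 across genes on edgeR's log CPM with a prior count of 2, and at 0.0599, 0.402, 0.164 and 0.148 on log2 CPM with an offset of 0.5. Replicate 1 had the lowest value on both scales. Libraries of unlike number were not compared, and replicates 1 and 2 parted from 3 and 4 in both genotypes. These correlations therefore cannot show that samples were paired by number, and the block is given as an alternative only. No pair of libraries of the same genotype agreed within sampling noise. DESeq2 gave no adjusted p for Ccnb1 and Aurkb.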

Additional observations from a re-analysis of the deposited data

Results flagged for a closer look

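Mcm3 in WT replicate 4 stood apart from the other WT libraries, at 2.50 CPM where they lay between 2.97 and 3.06 CPM. Its gap to the nearest of them was 0.842 of the range of the group, above Dixon's 95% critical value for 4 samples. It was the single value that stood apart in 64 groups of 4 libraries checked, and chance alone gives about 1 in 20. Wfs1KO replicate 4 was likewise the lowest Wfs1KO library for Mcm3, at 2.42 CPM.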

How the results depend on the processing

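With the replicate number as a block, 2932 genes were called over all tested genes, against 2970 without it. Rrm2 stayed the 1 member called, with an adjusted p of 0.0351, and the block changed no call other than those of Ccne1 and Usp1 among the 30 genes and the other cell cycle genes named. In replicates 1 and 2 alone 2939 of 16346 tested genes were called, and in replicates 3 and 4 alone 1846 of 15178. As each library was left out, 2387 to 2734 of all tested genes were called. The count of members called was 0 in replicates 1 and 2 alone and 0 in replicates 3 and 4 alone, and it ranged from 0 to 1 as each library was left out. The count of S phase members that rose was likewise 0 in both pairs alone and 0 to 1 with each library left out, and where Wfs1KO replicate 1 was left out the member called was Mcm6, which lay below WT. No mitotic member was called in any of the 18 alternatives, and the other cell cycle lists had 7 to 13 genes called, against 10. Over all tested genes these alternatives called 1846 to 3417, against 2970. The count of mitotic genes below 0 ranged from 13 in replicates 1 and 2 alone to 17 without Wfs1KO replicate 1 or WT replicate 2, and that of S phase genes above 0 was 8 or 9. The medians, alternatives added after seeing the data, ranged from -0.37 to -0.22 for mitotic genes and from 0.06 to 0.21 for S phase genes, and 11 to 13 endothelial markers rose.

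The log2 ratio of the S phase sums was 0.06, and it was 0.16 with CPM on raw totals, where that of the mitotic sums was -0.09 in place of -0.19. With each library left out, that of the S phase sums ran from 0.03 to 0.09. Library size cancels in the ratio of mitotic to S phase sums, whose log2 ratio was -0.28 in RPKM and -0.25 in CPM. Over the same genes, 672 alternative values kept their side of the threshold, 45 lost it, 1 passed it and none reversed a call. The cause of these changes was not tested, other than that leaving libraries out leaves fewer samples. Counts of 4 to 50 per library in Ccnb1, Aurkb, Bub1 and Tk1 limit what can be said of these genes. The same limit applies to Cdk1 (23 to 54 counts) and Ccnb2 (15 to 50), which had the lowest fold changes. It also applies to Cenpa (16 to 46 counts), Ube2c (21 to 51) and Plk1 (21 to 56).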

Other observations

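Among the other mitosis genes, a few were abundant in these islets. Spc25, of the Ndc80 kinetochore complex, had 85.1 ± 7.87 RPKM in Wfs1KO islets and 102 ± 23.5 RPKM in WT islets (SD, n = 4 each), and Zwint had 74.9 ± 2.15 RPKM in Wfs1KO islets and 62.1 ± 3.10 RPKM in WT islets. Hjurp, the chaperone of the centromeric histone Cenpa, had 13.3 ± 0.353 RPKM in Wfs1KO islets and 13.2 ± 0.746 RPKM in WT islets. Per length, Hjurp lay below other genes of the list. Among these were Bub3 (25.6 RPKM in Wfs1KO islets, 24.4 RPKM in WT islets) and H2afx (16.8 RPKM in Wfs1KO islets, 19.3 RPKM in WT islets). These levels stand beside a median of 0.710 RPKM in Wfs1KO islets and 0.872 RPKM in WT islets for the 19 mitotic genes. Neither Spc25 (log2 fold change -0.26, adjusted p 0.299) nor Hjurp (0.02, adjusted p 0.836) passed the test. No exon of Spc25, Zwint or Hjurp overlaps an exon of another gene in GENCODE. Spc25, Hjurp, Bub3 and H2afx were chosen after their values were seen.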
